A study of Mus musculus with 8 samples.

Results

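The solute carrier (Slc) genes encode membrane transporters, grouped into families by sequence. The 167 genes described here are those whose symbol starts with Slc, other than Slco and Slc16a, and that had 10 or more counts in at least 4 of the 8 libraries of the series, out of 37224 genes in the count table. The samples were single mouse oocytes arrested in the second meiotic metaphase (MII), collected after superovulation. Of the 8 oocytes, 4 came from Setd1bGdf9cKO females, in which Setd1b is deleted conditionally under a label that names Gdf9, an oocyte gene active during follicle growth. The other 4 came from control females, whose alleles the labels do not spell out. The labels do not say which exons are deleted, at what age, on which strain, or how many females gave the oocytes of a group, and a p-value here therefore reflects the spread among these single-oocyte libraries, which may be partly technical.

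Solute carriers move amino acids, sugars, ions, metals, vitamins and metabolites across the plasma membrane and the membranes of mitochondria, Golgi and lysosomes. Some work alone and some need a partner, as several amino acid exchangers of the Slc7 family need the heavy chain encoded by Slc3a2. A growing oocyte receives much of its supply through gap junctions with the surrounding follicle cells and takes up the rest itself, and the mature egg, which makes almost no new RNA, depends on transporters and mRNAs stored during growth. The enzyme encoded by Setd1b methylates lysine 4 of histone H3, a mark of active gene starts, and knockout and control eggs are compared here for the transporter mRNAs they hold.

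The member rule used the counts of all 8 libraries without regard to genotype. Of 364 Slc symbols read, 197 failed the rule, 82 of them without a count in any library, and 109 of the 167 members had 10 or more counts in every library. No member passed through the 4 libraries of 1 group alone, but 11 members had the count in under 2 control libraries and 1 had it in under 2 knockout libraries. Just inside the rule, Slc27a6 had 21, 26, 22 and 1 counts in knockout replicates 1 to 4, against 1, 23, 0 and 0 counts in control replicates 1 to 4. Just outside it, Slc25a28 had 41, 25, 20 and 9 counts in knockout replicates 1 to 4, against 0, 0, 1 and 0 counts in control replicates 1 to 4.

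Library totals ran from 9488899 to 11313502 counts in knockout and from 11029602 to 13519404 in control oocytes, and the members took 0.812% to 0.986% of them in knockout and 0.653% to 1.03% in control oocytes. Levels are given in counts per 1000000 (CPM) of the library total multiplied by its composition factor, on which 3 counts, taken as the detection floor, are 0.225 to 0.279 CPM in knockout and 0.240 to 0.330 CPM in control libraries. Composition factors were 1.07 to 1.22 in knockout and 0.799 to 0.946 in control libraries, and 11190 to 12153 genes in knockout and 9913 to 10714 genes in control libraries had 10 or more counts. Setd1b itself stood at 3.99 ± 0.923 CPM in knockout and 10.9 ± 1.46 CPM in control oocytes (SD, n = 4 each, as for every mean CPM below). All 10 listed oocyte markers were present, and of these 4 rose and 2 fell. The summed level of 14 cumulus and granulosa markers was 131.2 to 195.8 CPM in knockout and 234.7 to 254.9 CPM in control oocytes, with Amh, Foxl2, Inha, Tnfaip6 and Ptx3 at 0 in every library. Nearly all of this sum came from Cyp19a1, Esr2, Kitl and Nr5a2. Of these, Cyp19a1 and Esr2 fell (log2 fold changes -0.85 and -0.80), and Kitl and Nr5a2 were not called. Fshr, Inhba, Ptgs2, Has2 and Hsd17b1 had means under 1 CPM in both groups. The sum of 4 oviduct markers, nearly all of it Epcam, was 1.53 to 4.65 CPM in knockout and 21.0 to 45.3 CPM in control oocytes. Krt18 and Foxj1 were at 0 in every library, and Ovgp1 had means under 1 CPM in both groups. Blood and endothelial markers summed to 23.4 to 45.1 CPM in knockout and 41.8 to 70.7 CPM in control oocytes. Nearly all of that sum was Pecam1, which fell, with Ptprc and Hbb-bt at 0 in every library. Stromal markers summed to 3.63 to 13.1 CPM in knockout and 6.43 to 14.3 CPM in control oocytes. The cumulus sum and Epcam, the gene behind the oviduct sum, were lower in knockout oocytes, as were the members that fell. The composition factors were higher, and the part of each in the results was not tested. Because a CPM value here is a share of the library rescaled by its composition factor, less RNA of 1 gene and more RNA of the others cannot be told apart.

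Of the 167 members, 166 could be tested, with Slc26a10 too low in count. In knockout oocytes 16 members rose and 18 fell at an adjusted p under 0.05 in edgeR's quasi-likelihood test with Benjamini-Hochberg adjustment over 11066 genes, the test behind every adjusted p below, and 132 did not pass. Of all tested genes 13.6% rose and 12.2% fell, against 9.64% and 10.8% of the members, so the share of members called was near the background in both directions (25.8% of all tested genes were called). The median log2 fold change of the members was 0.10, the same as the 0.10 of all tested genes. With the stricter requirement of 10 counts in at least 2 libraries of each group, 155 members were left, with 14 rises, 18 falls and a median of 0.02.

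The members that fell were at a higher level than the members as a whole, as were the falls among all tested genes. Over the 8 libraries the members had a median of 12.3 CPM, and all tested genes had one of 15.6 CPM, with 18.9 CPM for those that rose and 144.2 CPM for those that fell. The 16 members that rose had a median of 13.3 CPM and log2 fold changes of 0.92 to 4.26, with a median of 2.19. The 18 that fell had a median of 87.8 CPM, and their log2 fold changes ran from -3.02 to -0.61 with a median of -1.08. A difference of at least 2-fold was reached by 15 of the rises and 10 of the falls. The knockout and control libraries did not overlap for any of the 16 rises and for 14 of the 18 falls; among all members, 20 were higher and 16 lower in knockout without overlap, against a background of 17.6% and 13.6% of tested genes. Scaling bore on the falls: with library totals alone, all 16 rises and 7 of the 18 falls passed the test, and the median of all tested genes moved up by 0.392 on the log2 scale. Without knockout replicate 2, 9 members fell.

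**Figure D1:**
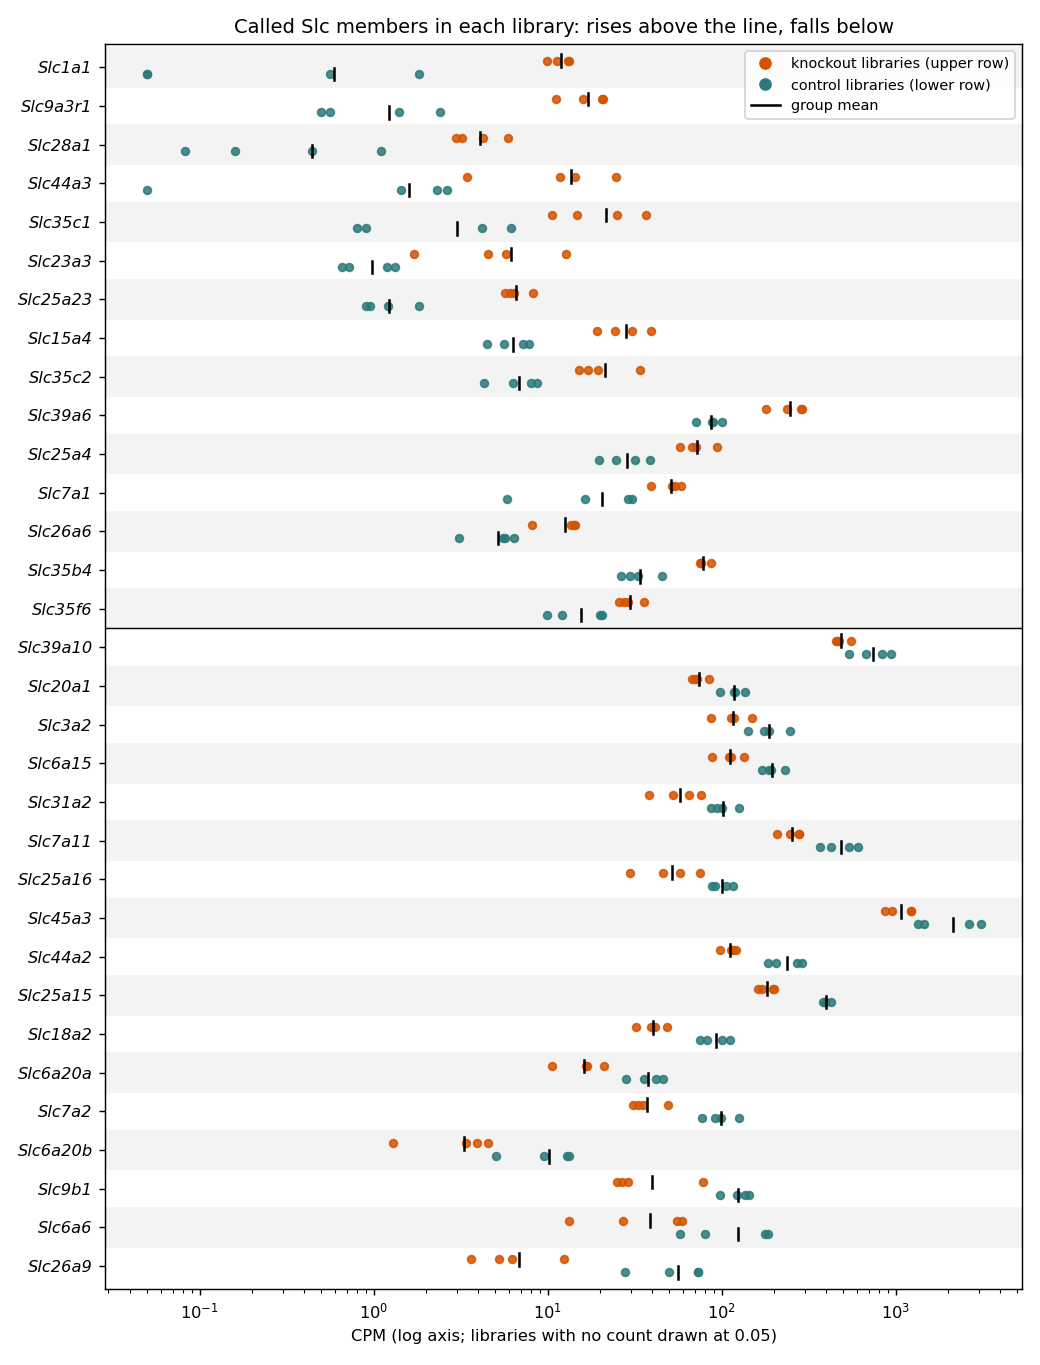
CPM of 32 of the 34 called members in each of the 8 libraries (log axis), with the members that rose above the line and those that fell below it; in each pair of rows the upper points are the 4 knockout and the lower points the 4 control libraries, and the bars are group means. The 16 rises have a median of 13.3 CPM over the 8 libraries and the 18 falls a median of 87.8 CPM.

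Calls were counted by transporter class, and the differences between classes were not tested. Amino acid, peptide and neurotransmitter transporters held 8 of the 18 falls, 27.6% of the class against 12.2% of all tested genes, with 3 rises. Inorganic ion and pH transporters held 4 falls, 14.3% of the class and near that background, and 1 rise. The nucleotide sugar class held 4 rises, 21.1% of the class against 13.6% of all tested genes, and no fall. It is the whole Slc35 family by number, with some members that have no assigned substrate. Mitochondrial carriers had 3 rises and 2 falls, metal transporters 1 rise and 2 falls, and transporters of vitamins, nucleosides, lipids and organic ions 3 rises and 1 fall. Sugar and polyol transporters had 1 fall and no rise, and of 4 genes that are named after a transporter but are not transporters 1 rose. Median log2 fold changes ran from -0.46 in the inorganic ion class to 0.56 in the nucleotide sugar class.

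**Figure D2:**
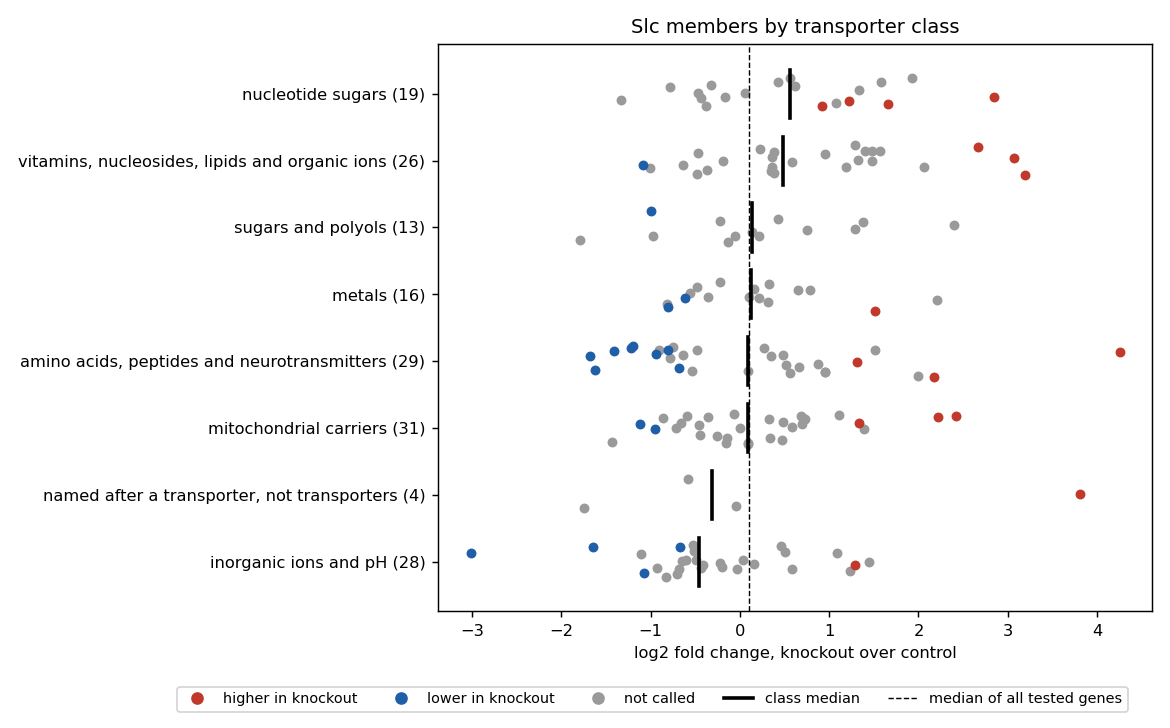
Log2 fold change of knockout over control for the 166 tested members, 1 point each, by class, with the number tested in brackets; red points rose, blue points fell and grey points did not pass the test, the thick bar is the class median and the dashed line the median of all tested genes, 0.10. The median is lowest in the inorganic ion class, -0.46, and highest in the nucleotide sugar class, 0.56.

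Among the 29 transporters of amino acids, peptides and neurotransmitters, Slc7a1, Slc15a4 and Slc1a1 rose in knockout oocytes, and 8 genes fell, 4 of them in the Slc6 family of sodium-coupled transporters. None of the 8 Slc6 members rose. Of all tested genes, 13.6% rose and 12.2% fell. The class median was 0.09, with 15 members above and 14 below 0. The 8 that fell had a median level of 74.9 CPM and the whole class one of 10.01 CPM. The median was -0.48 with 10 counts required in at least 2 libraries of each group. The class had 5 falls without knockout replicate 1, without knockout replicate 2 or without control replicate 2, and it had 3 under scaling by library totals alone.

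Cationic amino acids such as arginine and lysine enter cells through a small set of Slc7 transporters, of which 2 were called in opposite directions. Slc7a1 (ENSMUSG00000041313, chromosome 5, 148327410 to 148399904, mm10) had 52.1, 54.0, 39.2 and 58.4 CPM in knockout replicates 1 to 4, against 5.84, 28.8, 30.6 and 16.4 CPM in control replicates 1 to 4. All 4 knockout libraries lay above all control libraries, with control replicate 1 the lowest. Its log2 fold change was 1.32 ± 0.42 (SE over 4 libraries per group) at an adjusted p of 0.0368. The call was lost without any 1 of the knockout replicates or without control replicate 4, with an adjusted p of 0.0502 to 0.0933. Slc7a2, the second cationic amino acid transporter (chromosome 8, 40862396 to 40922308, mm10), had 49.0, 35.5, 31.0 and 33.2 CPM in knockout replicates 1 to 4, against 126, 99.5, 77.4 and 92.0 CPM in control replicates 1 to 4. Every knockout library was lower than every control library, and the log2 fold change was -1.41 ± 0.23 (SE over 4 libraries per group) at an adjusted p of 0.00129; the call held in all alternatives run.

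Slc15a4 (ENSMUSG00000029416, chromosome 5, 127595664 to 127632897, mm10) encodes a proton-coupled transporter of histidine and peptides in lysosomes. Its level was 39.2, 30.4, 19.2 and 24.4 CPM in knockout replicates 1 to 4, against 4.51, 5.59, 7.25 and 7.80 CPM in control replicates 1 to 4, with no overlap between the groups. The log2 fold change was 2.17 ± 0.34 (SE over 4 libraries per group) at an adjusted p of 0.00111, and the call held in every alternative. Slc1a1, the neuronal and epithelial glutamate and aspartate transporter that also carries cysteine, had 9.88, 11.4, 13.2 and 13.1 CPM in knockout replicates 1 to 4, against 0, 0.559, 1.81 and 0 CPM in control replicates 1 to 4, or 571 counts in knockout and 29 in control libraries. Control replicates 1 and 4 had no count, and replicates 2 and 3 had 7 and 22. Slc1a1 and Slc28a1 met the count rule with 4 knockout libraries and 1 control library each, and are the 2 rises that the stricter requirement in both groups leaves out. The log2 fold change was 4.26 ± 0.99 (SE over 4 libraries per group) at an adjusted p of 0.00911, and it was 5.78 without control replicate 3. Of the exon bases of Slc1a1 42.6% are shared with an unnamed gene on the opposite strand, and the counting used no strand, so the reads of these genes cannot be told apart. Slc1a1 had a mean under 10 CPM and is named outside the rule, after its values were seen, as are the other called members below that had means under 10 CPM or overlapping groups.

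The 4 Slc6 members that fell carry taurine (Slc6a6), proline and related imino acids (Slc6a20a and Slc6a20b) and branched-chain and other neutral amino acids (Slc6a15). Slc6a20a (chromosome 9, 123636122 to 123678885, mm10) had 16.5, 16.9, 10.6 and 21.0 CPM in knockout replicates 1 to 4, against 42.2, 45.9, 28.1 and 35.6 CPM in control replicates 1 to 4. The groups did not overlap, and the log2 fold change was -1.22 ± 0.29 (SE over 4 libraries per group) at an adjusted p of 0.00956. With library totals only, the call was lost (log2 fold change -0.81, adjusted p = 0.0663). Of its exon bases 15.2% overlap Gm17120 on the opposite strand. Its neighbour and near copy Slc6a20b fell as well, to 3.30 ± 1.42 CPM in knockout, against 10.2 ± 3.83 CPM in control oocytes (log2 fold change -1.62, adjusted p = 0.0419), and reads of the 2 copies may be split or lost. The Slc6a20b call was lost without any 1 library other than control replicate 3, with an adjusted p of 0.0604 to 0.0938, with library totals only (0.118), with no filter on low counts (0.0619) and with a length trend removed (0.0629). Slc6a6, the taurine transporter, had 27.0, 13.3, 55.8 and 59.5 CPM in knockout replicates 1 to 4, against 57.4, 178, 184 and 79.7 CPM in control replicates 1 to 4. The groups overlapped, since control replicate 1 lay below knockout replicate 4, and the libraries of each group were far apart. For Slc6a6 the log2 fold change was -1.68 ± 0.48 (SE over 4 libraries per group) at an adjusted p of 0.0240, and the adjusted p was 0.0599 to 0.0776 without knockout replicate 1 or 2 or control replicate 2 or 3 and 0.0669 with library totals only. Slc6a15 fell to 112 ± 19.4 CPM in the knockout group, against 195 ± 25.3 CPM in the control group (log2 fold change -0.80, adjusted p = 0.00787), a call lost with library totals only (log2 fold change -0.41, adjusted p = 0.0875). Summed over the 8 members of the family, Slc6 transcripts came to 199.2, 146.7, 225.7 and 207.0 CPM in knockout replicates 1 to 4, against 320.7, 453.9, 413.5 and 374.4 CPM in control replicates 1 to 4, a sum that includes the called falls and was not tested. It was also lower without overlap per 1000000 unscaled counts, at 172.3 to 242.6 in knockout and 264.1 to 420.3 in control libraries. The glycine transporter Slc6a9, which serves glycine uptake and cell volume in mouse eggs, was at 7.57 ± 4.19 CPM in the knockout and 5.95 ± 3.72 CPM in the control group, with a log2 fold change of 0.35 and an adjusted p of 0.725; 27.8% of its exon bases overlap Ccdc24 on the opposite strand.

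The cystine and glutamate exchanger is built from the light chain encoded by Slc7a11 and the heavy chain encoded by Slc3a2, and both transcripts fell. Slc7a11 (chromosome 3, 50364936 to 50443613, mm10) had 248.6, 209, 279 and 279 CPM in knockout replicates 1 to 4, against 611, 539, 368 and 426 CPM in control replicates 1 to 4. The highest knockout library stood below the lowest control library, and the log2 fold change was -0.93 ± 0.19 (SE over 4 libraries per group) at an adjusted p of 0.00460. Slc3a2 fell to 117 ± 25.9 CPM in the knockout group, against 188 ± 43.7 CPM in the control group, with 1 control library inside the knockout range. It passed at an adjusted p of 0.0375 (log2 fold change -0.68), and the call was lost without any 1 library other than knockout replicate 4 or control replicate 4, with an adjusted p of 0.0563 to 0.121, and with library totals only (log2 fold change -0.29, adjusted p = 0.344). After removal of a length trend in each library, the adjusted p of Slc7a11 was 0.0692. Slc7a5, the leucine-preferring light chain that shares Slc3a2, had 29.5 ± 12.3 CPM in the knockout and 16.1 ± 4.63 CPM in the control group. It did not pass the test (log2 fold change 0.88, adjusted p = 0.0966), but did so without knockout replicate 3 (adjusted p = 0.0406). Slc7a5 also passed under scaling by library totals alone (adjusted p = 0.0308) and with at least 10 CPM in 4 libraries (adjusted p = 0.0428). Slc18a2, which loads monoamines into vesicles, fell without overlap to 40.4 ± 6.59 CPM in the knockout group, against 92.6 ± 17 CPM in the control group (log2 fold change -1.19, adjusted p = 0.00216), a call that held in every alternative.

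The summed level of the class was 1021, 860.9, 1005 and 1016 CPM in knockout replicates 1 to 4, against 1600, 1699, 1523 and 1335 CPM in control replicates 1 to 4. Knockout libraries were all lower on this scale, also without Slc7a11, which held 29.4% of the sum. Per 1000000 unscaled counts the groups overlapped, at 1011 to 1244 in knockout and 1067 to 1573 in control libraries. Of the listed transporters known from oocytes and embryos, Slc1a5, Slc38a2 and Slc38a3 had no count in any library, below the floor of 3 counts.

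Inorganic ion and pH transporters had 4 falls and 1 rise. The falls were 14.3% of the 28 tested members, near the 12.2% of all tested genes. A log2 fold change below 0 was found for 19 of the 28, against 5126 of all 11066 tested genes. Slc26a9, Slc9b1 and Slc20a1 were among the falls, and Slc26a6 rose. The median log2 fold change of -0.46 was -0.06 under scaling by library totals alone, which moved the median of all tested genes up by 0.392. The class had 2 falls with that scaling, and likewise without knockout replicate 1 or without knockout replicate 2.

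Slc26a9, a chloride transporter and channel of epithelia (ENSMUSG00000042268, chromosome 1, 131744022 to 131771504, mm10), showed the deepest fall of all members. It had 12.4, 5.27, 6.28 and 3.63 CPM in knockout replicates 1 to 4, against 73.1, 72.9, 27.8 and 50.1 CPM in control replicates 1 to 4, with all knockout libraries below all control libraries. The log2 fold change was -3.02 ± 0.43 (SE over 4 libraries per group) at an adjusted p of 0.000645, and the call held in every alternative. Slc26a6, an exchanger of chloride for bicarbonate and other anions, had 13.7, 14.5, 14.2 and 8.18 CPM in knockout replicates 1 to 4, against 6.39, 5.51, 5.69 and 3.10 CPM in control replicates 1 to 4. Every knockout library was higher than every control library, with knockout replicate 4 closest to them. Its log2 fold change was 1.29 ± 0.41 (SE over 4 libraries per group) at an adjusted p of 0.0366; the adjusted p was 0.0577 to 0.0984 without knockout replicate 1, 2 or 3 or without control replicate 2, 3 or 4, 0.0698 with no filter on low counts and 0.0595 with a length trend removed. The pair was taken because its members were called in opposite directions, and their ratio, here as for the pairs below, was not tested. The ratio of Slc26a6 to Slc26a9, per kilobase of transcript and thus free of library scaling, was 2.41, 5.97, 4.91 and 4.91 in knockout replicates 1 to 4, against 0.190, 0.164, 0.446 and 0.135 in control replicates 1 to 4.

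Slc9b1, a sodium and proton exchanger known from sperm in the mouse and the most abundant member of the class per kilobase, had 78.1, 26.9, 29.1 and 25.02 CPM in knockout replicates 1 to 4, against 122, 136, 97.7 and 143 CPM in control replicates 1 to 4. Knockout replicate 1 stood well above the other knockout libraries but below all controls, and the log2 fold change was -1.65 ± 0.35 (SE over 4 libraries per group) at an adjusted p of 0.00594, which held in every alternative. Slc20a1, a sodium-dependent phosphate importer, fell to 73.9 ± 7.54 CPM in the knockout group, against 118 ± 15.4 CPM in the control group, without overlap. It passed at an adjusted p of 0.0167 (log2 fold change -0.67), but the call was lost when knockout replicate 1 (adjusted p = 0.0540) or 2 (adjusted p = 0.0526) was left out. It was also lost with library totals only (log2 fold change -0.27, adjusted p = 0.270) and with a length trend removed (adjusted p = 0.0586).

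Slc12a2 and Slc4a2, which serve cell volume and pH in textbook accounts, did not pass the test. The sodium, potassium and chloride cotransporter Slc12a2 was at 45.9 ± 13.8 CPM in the knockout and 65.4 ± 22.9 CPM in the control group (log2 fold change -0.51, adjusted p = 0.216). The chloride and bicarbonate exchanger Slc4a2 was low, at 2.44 ± 0.620 CPM in the knockout and 2.50 ± 0.634 CPM in the control group, and 11.2% of its exon bases overlap Fastk on the opposite strand. None of the 6 Slc4 members was called, where 25.8% of all tested genes were. Slc4a7, the most abundant member of the class in CPM, narrowly missed the threshold (log2 fold change -0.65, adjusted p = 0.0506). Its knockout libraries all lay below all control libraries, and it is named outside the rule, after its values were seen. The summed level of the class was 676.0, 626.9, 658.8 and 632.8 CPM in knockout replicates 1 to 4, against 1088, 1067, 908.9 and 1037 CPM in control replicates 1 to 4. The sums did not overlap on this scale or per 1000000 unscaled counts, where they were 705.0 to 823.4 in knockout and 829.3 to 987.6 in control libraries.

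**Figure D3:**
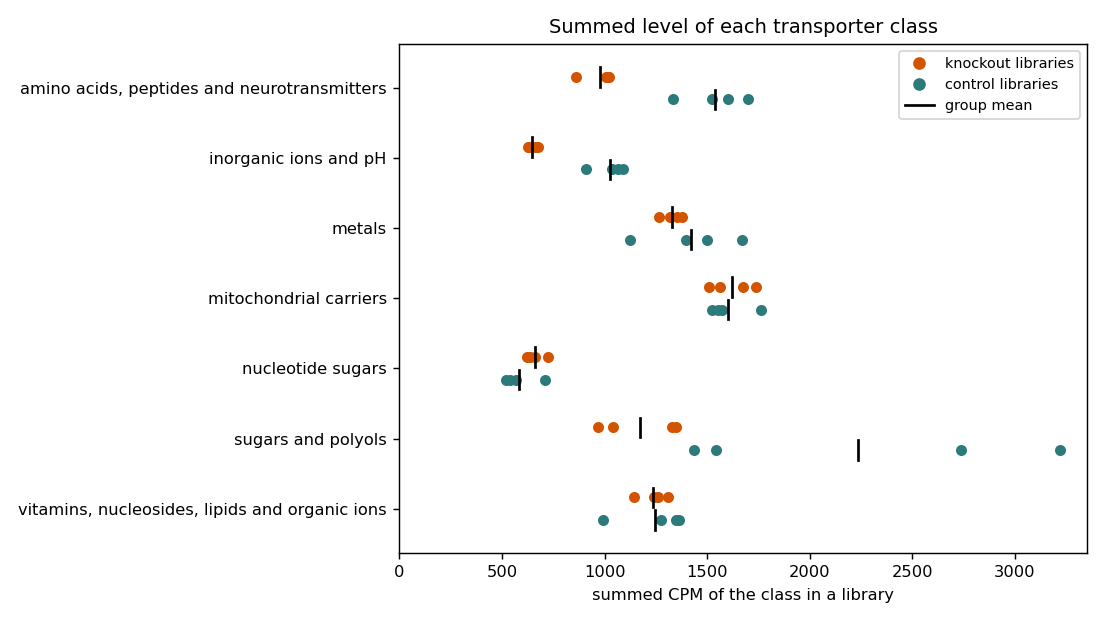
Summed CPM of the members of each transporter class in each library, with 4 knockout libraries in the upper and 4 control libraries in the lower row of points and bars at the group means. Knockout sums lie below control sums without overlap for the amino acid, inorganic ion and sugar classes, and the groups overlap for the other 4 classes. The sum over all genes is also lower in knockout without overlap on this scale. On unscaled counts only the inorganic ion class stays lower, and the amino acid, sugar and metal classes overlap. The mitochondrial, nucleotide sugar and vitamin classes are higher on unscaled counts.

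Among 16 metal transporters 1 zinc importer rose, and a zinc importer and a copper transporter fell. With library totals only, 5 members of the class rose and 0 fell. Slc39a6 and Slc39a10 encode zinc importers of the plasma membrane, both known to act in zinc uptake by the maturing mouse oocyte. Slc39a6 (ENSMUSG00000024270, chromosome 18, 24579881 to 24603817, mm10) had 288, 237, 181 and 287 CPM in knockout replicates 1 to 4, against 89.4, 101, 88.0 and 71.2 CPM in control replicates 1 to 4. Each knockout library had more than each control library, and the log2 fold change was 1.51 ± 0.20 (SE over 4 libraries per group) at an adjusted p of 0.000377, which held in every alternative. Slc39a10, the most abundant metal transporter per kilobase, had 457, 555, 461 and 472 CPM in knockout replicates 1 to 4, against 833, 673, 937 and 539 CPM in control replicates 1 to 4. Knockout replicate 2 exceeded control replicate 4, so the groups overlapped. Slc39a10 had a log2 fold change of -0.61 ± 0.19 (SE over 4 libraries per group, adjusted p = 0.0306), and the call was lost without any 1 library other than control replicate 2 or 4, with an adjusted p of 0.0521 to 0.0839. The adjusted p was also 0.431 with library totals only (log2 fold change -0.23), 0.0554 with at least 10 CPM in 4 libraries and 0.108 with a length trend removed. The ratio of Slc39a6 to Slc39a10 per kilobase was 0.574 to 0.922 in knockout and 0.137 to 0.219 in control libraries, without overlap.

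The zinc exporters and vesicle loaders of the Slc30 family gave no call among 7 members, where 25.8% of all tested genes were called. Among them, Slc30a4 was at 133 ± 29.8 CPM in the knockout and 106 ± 19.9 CPM in the control group. Slc31a2, a copper transporter of intracellular vesicles, fell without overlap to 58.0 ± 16.4 CPM in the knockout group, against 102 ± 16.9 CPM in the control group. The call (log2 fold change -0.81, adjusted p = 0.0257) was lost, with an adjusted p of 0.0640 to 0.0763, without knockout replicate 2 or 3 or control replicate 2, and with library totals only (log2 fold change -0.42, adjusted p = 0.257). The copper importer Slc31a1 was at 65.6 ± 7.82 CPM in the knockout and 56.8 ± 10.6 CPM in the control group and was not called. The summed level of the class was 1266 to 1378 CPM in knockout and 1125 to 1671 CPM in control oocytes.

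Of 31 mitochondrial carriers (Slc25), 3 rose and 2 fell, and the class median of 0.09 was close to that of all genes but was -0.25 without knockout replicate 4. The ADP and ATP exchangers that supply the cell with mitochondrial ATP did not all give the same result. Slc25a4, the exchanger of heart and muscle (chromosome 8, 46206797 to 46211284, mm10), had 93.7, 57.4, 70.9 and 67.9 CPM in knockout replicates 1 to 4, against 31.8, 19.7, 38.7 and 24.6 CPM in control replicates 1 to 4. All knockout libraries were above all control libraries, and the log2 fold change was 1.34 ± 0.26 (SE over 4 libraries per group) at an adjusted p of 0.00376, which held in every alternative. Slc25a5, the form of dividing cells, was at 239.5 ± 40.2 CPM in the knockout and 148 ± 51.6 CPM in the control group. It did not pass the test (log2 fold change 0.70, adjusted p = 0.0562), but did so without control replicate 4 (adjusted p = 0.0208) and in DESeq2 (adjusted p = 0.0403). Slc25a5 also passed with library totals only (adjusted p = 0.00273) and with at least 10 CPM in 4 libraries (adjusted p = 0.0107). Slc25a31, the germ cell form, was at 97.6 ± 14.8 CPM in the knockout and 91.7 ± 16.6 CPM in the control group (log2 fold change 0.09, adjusted p = 0.768). These 3 genes are near copies in their coding parts, so reads could be lost or split between them.

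Slc25a15, which exchanges ornithine and citrulline for the urea cycle and arginine metabolism (chromosome 8, 22375554 to 22398621, mm10), had 172, 162, 199.9 and 197 CPM in knockout replicates 1 to 4, against 423, 390.1, 393 and 380.1 CPM in control replicates 1 to 4. Both groups were tight and far apart, and the log2 fold change was -1.12 ± 0.15 (SE over 4 libraries per group) at an adjusted p of 0.000412, which held in every alternative. Slc25a16, an inner membrane carrier linked to coenzyme A, fell to 52.1 ± 19.1 CPM in the knockout group, against 101 ± 12.6 CPM in the control group (log2 fold change -0.95, adjusted p = 0.0213), a call lost without knockout replicate 2 (adjusted p = 0.0741) and with library totals only (log2 fold change -0.56, adjusted p = 0.123). Slc25a23, a calcium-dependent carrier of ATP-magnesium and phosphate, rose to 6.59 ± 1.13 CPM in the knockout group, against 1.22 ± 0.417 CPM in the control group (log2 fold change 2.42, adjusted p = 0.00886), and the call held in every alternative that tested it. The ratio of Slc25a4 to Slc25a15 per kilobase was 0.800, 0.519, 0.520 and 0.505 in knockout replicates 1 to 4, against 0.111, 0.0742, 0.145 and 0.0950 in control replicates 1 to 4.

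The phosphate carrier Slc25a3, which feeds ATP synthesis, was at 29.6 ± 10.6 CPM in the knockout and 29.5 ± 8.58 CPM in the control group (log2 fold change 0.00). Slc25a17, a peroxisomal relative of the family and its most abundant member per kilobase, was at 351 ± 50.2 CPM in the knockout and 212 ± 90.5 CPM in the control group. It did not pass the test (log2 fold change 0.73, adjusted p = 0.0598), but did so without control replicate 1 (adjusted p = 0.00642) and with library totals only (adjusted p = 0.00443). Slc25a17 also passed in DESeq2 (adjusted p = 0.0362) and with at least 10 CPM in 4 libraries (adjusted p = 0.0113). The class sum was 1510 to 1740 CPM in knockout and 1523 to 1762 CPM in control oocytes, which overlap, and per 1000000 unscaled counts it was 1791 to 1971 in knockout and 1255 to 1451 in control libraries, higher without overlap. The class had 6 rises with library totals only.

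**Figure D4:**
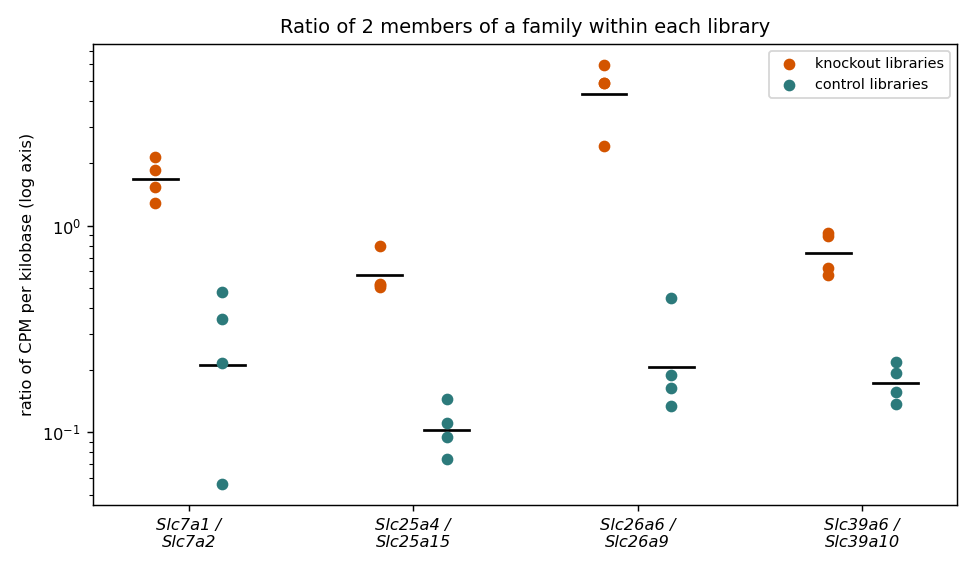
Ratio of 2 members of a family in CPM per kilobase within each library (log axis), with knockout libraries left and control libraries right in each pair and bars at the geometric means. Each of the 4 ratios was higher in every knockout than in every control library; the pairs were chosen because 1 member rose and the other fell, so the gap follows from the choice.

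Nucleotide sugar transporters of the Slc35 family carry activated sugars and related donors into the Golgi and endoplasmic reticulum for glycosylation, and some members have no assigned substrate. Of 19 members 4 rose and none fell, and the class median was 0.56. Log2 fold changes were above 0 for 12 members and below 0 for 7. The class was set by family number, so its median is not that of nucleotide sugar carriers alone. The class had 6 rises in DESeq2 and 7 with library totals only. After removal of a length trend in each library, Slc35a1 passed as lower (log2 fold change -0.52, adjusted p = 0.0474), against -0.32 and 0.227 without that step.

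The largest rise of the family was that of Slc35c1, which carries GDP-fucose into the Golgi (chromosome 2, 92452764 to 92460538, mm10). It had 36.8, 14.8, 10.6 and 24.9 CPM in knockout replicates 1 to 4, against 4.18, 6.15, 0.907 and 0.800 CPM in control replicates 1 to 4, with no overlap between the groups. The log2 fold change was 2.85 ± 0.68 (SE over 4 libraries per group) at an adjusted p of 0.00982, and it was 3.48 without control replicate 2. Its relative Slc35c2, linked to the fucosylation of Notch, had 34.1, 19.4, 17.2 and 15.3 CPM in knockout replicates 1 to 4, against 4.29, 7.99, 8.65 and 6.30 CPM in control replicates 1 to 4. Knockout libraries were again all higher, and the log2 fold change was 1.66 ± 0.38 (SE over 4 libraries per group) at an adjusted p of 0.00891. Slc35b4, a carrier of UDP-xylose and UDP-N-acetylglucosamine, had 86.4, 75.6, 76.4 and 75.1 CPM in knockout replicates 1 to 4, against 45.6, 29.6, 33.3 and 26.5 CPM in control replicates 1 to 4. The knockout libraries lay close together, well above the controls, and the log2 fold change was 1.22 ± 0.22 (SE over 4 libraries per group) at an adjusted p of 0.00231. These 3 calls held in every alternative, though 10% of the exon bases of Slc35b4 overlap Gm13856 on the opposite strand. Slc35f6 rose to 29.6 ± 4.34 CPM in the knockout group, against 15.6 ± 5.41 CPM in the control group (log2 fold change 0.92, adjusted p = 0.0454), a call lost without any 1 library other than control replicate 2 or 3 (adjusted p 0.0744 to 0.137), with median-of-ratios factors (0.0513) and with no filter on low counts (0.0750).

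Of the members that did not pass, Slc35b2, the carrier of the sulfate donor PAPS, had 6.80 ± 2.68 CPM in the knockout and 1.77 ± 1.04 CPM in the control group without overlap between groups (log2 fold change 1.93, adjusted p = 0.0538). Slc35a1, the CMP-sialic acid transporter and the most abundant member per kilobase, was at 115 ± 10.3 CPM in the knockout and 144 ± 31.0 CPM in the control group. The class sum was 722.2, 634.8, 658.9 and 623.0 CPM in knockout replicates 1 to 4, against 710.5, 540.6, 568.4 and 520.3 CPM in control replicates 1 to 4, which overlap. Per 1000000 unscaled counts it was 705.0 to 879.7 in knockout and 416.0 to 585.1 in control libraries, without overlap.

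Sugar and polyol transporters gave a single call among 13 members. Slc45a3, a member of a sugar transporter family first described in prostate (chromosome 1, 131962967 to 131982963, mm10), held 93.8% of the class sum and was the most abundant member of all classes, both in CPM and per kilobase. It had 1232, 947, 866 and 1227 CPM in knockout replicates 1 to 4, against 1446, 2642, 3082 and 1337 CPM in control replicates 1 to 4. Each knockout library was lower than each control library, although control replicates 1 and 4 stood near the upper knockout libraries and replicates 2 and 3 far above. For Slc45a3 the log2 fold change was -0.99 ± 0.27 (SE over 4 libraries per group) at an adjusted p of 0.0185, and the adjusted p was 0.0507 to 0.0648 without knockout replicate 2 or 3 or control replicate 3. With library totals only, the log2 fold change was -0.63 at an adjusted p of 0.152, and no member of the class fell. Without Slc45a3 the class sum was 92.1 to 115.4 CPM in knockout and 94.7 to 137.1 CPM in control oocytes. The glucose transporter Slc2a1 was at 21.2 ± 8.63 CPM in the knockout and 22.1 ± 1.83 CPM in the control group (log2 fold change -0.06), and the listed glucose transporters Slc2a3 and Slc2a8 failed the count rule, with at most 13 counts in any library.

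Transporters of vitamins, nucleosides, lipids and organic ions had a median log2 fold change of 0.49 over 26 members, with 3 rises and 1 fall. No member rose without knockout replicate 1, when Slc23a3, Slc28a1 and Slc44a3 all missed the threshold, or among those with at least 10 CPM in 4 libraries, while 6 rose in DESeq2, 5 without control replicate 2 and 7 with library totals only. The class sum per 1000000 unscaled counts was 1325 to 1596 in knockout and 794.7 to 1288 in control libraries. The 3 that rose had a median of 3.58 CPM and the 1 that fell 174.8 CPM, and the class median was -0.34 among members with at least 10 CPM in 4 libraries. Within the choline transporter-like family, Slc44a2 fell and Slc44a3 rose. Slc44a2 had 113, 98.2, 116 and 120.3 CPM in knockout replicates 1 to 4, against 205, 289, 271 and 185 CPM in control replicates 1 to 4, with no overlap. The log2 fold change was -1.08 ± 0.19 (SE over 4 libraries per group) at an adjusted p of 0.00178, which held in every alternative. Slc44a3 had 24.7, 14.3, 11.8 and 3.44 CPM in knockout replicates 1 to 4, against 1.43, 2.32, 2.64 and 0 CPM in control replicates 1 to 4, also with no overlap but with knockout libraries far apart (log2 fold change 3.07, adjusted p = 0.0245). Its call was lost without knockout replicate 1 or 2 or control replicate 1, with an adjusted p of 0.0503 to 0.0944.

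Slc28a1, which takes up pyrimidine nucleosides, rose to 4.10 ± 1.35 CPM in the knockout group, against 0.446 ± 0.463 CPM in the control group (log2 fold change 3.20, adjusted p = 0.0206). It was 4.16 without control replicate 4, and the call was lost when knockout replicate 1 (adjusted p = 0.0544) or 4 (adjusted p = 0.0644) was left out. Slc23a3, a relative of the vitamin C transporters, rose to 6.20 ± 4.68 CPM in the knockout group, against 0.975 ± 0.335 CPM in the control group (log2 fold change 2.67, adjusted p = 0.0193), with an adjusted p of 0.108 without knockout replicate 1. The vitamin C transporter Slc23a2, the most abundant of the class per kilobase, was at 689 ± 72.0 CPM in the knockout and 588 ± 124 CPM in the control group and did not pass the test (log2 fold change 0.23, adjusted p = 0.387), but did so as higher with library totals only (adjusted p = 0.0460) and with a length trend removed (adjusted p = 0.0408). The carnitine transporter Slc22a5 was at 13.6 ± 7.77 CPM in the knockout and 10.7 ± 3.97 CPM in the control group (log2 fold change 0.34, adjusted p = 0.662).

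Among genes that carry an Slc symbol but encode other proteins, Slc9a3r1, a scaffold that links membrane proteins to ezrin and the actin cortex, had 20.7, 16.0, 20.5 and 11.2 CPM in knockout replicates 1 to 4, against 2.42, 0.559, 1.401 and 0.5002 CPM in control replicates 1 to 4. The groups did not overlap, and the log2 fold change was 3.81 ± 0.57 (SE over 4 libraries per group) at an adjusted p of 0.000843, which held in every alternative. Its paralog Slc9a3r2 was at 1.22 ± 1.24 CPM in the knockout and 4.11 ± 2.60 CPM in the control group and was not called (log2 fold change -1.75, adjusted p = 0.146). Slc7a6os, the most abundant of these 4 genes per kilobase, was at 73.0 ± 15.5 CPM in the knockout and 75.0 ± 5.91 CPM in the control group (log2 fold change -0.04).

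Over all classes, levels spanned means of 0.704 to 1598 CPM, with 19 members at 100 CPM or more and 76 under 10 CPM. The 5 most abundant members in CPM (Slc45a3, Slc23a2, Slc39a10, Slc7a11 and Slc25a15) made up 31.7% to 36.3% of member CPM in knockout and 37.9% to 50.4% in control oocytes, and 4 of the 5 were among the falls. The sum over all members was 7293 to 8100 CPM in knockout and 8167 to 10883 CPM in control oocytes, without overlap. The sum over all genes was likewise lower on this scale, at 821028 to 934833 CPM in knockout and 1057064 to 1250861.5 CPM in control oocytes. Before scaling by composition factors, the members took 0.812% to 0.986% of library counts in knockout and 0.653% to 1.03% in control oocytes, which overlap. Without Slc45a3 the scaled member sums overlapped, at 6346 to 6873 CPM in knockout and 6830 to 8248 CPM in control oocytes.

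**Figure D5:**
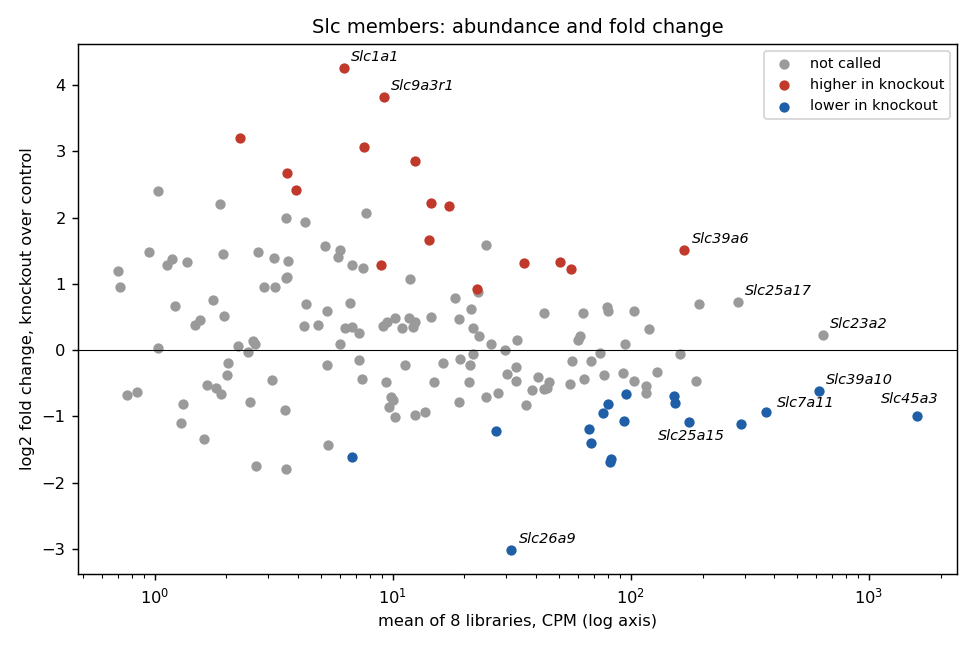
Log2 fold change of knockout over control against the mean CPM of the 8 libraries (log axis) for the 166 tested members, with rises in red, falls in blue and members that did not pass in grey. Rises have a median of 13.3 CPM, close to the 12.3 CPM of all members, and falls one of 87.8 CPM.

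Promoter sequence was set beside these calls because the mark made by Setd1b lies at gene starts, many of them rich in CpG. A RefSeq window of 250 bases before to 50 bases after the start (GRCm38.p6) was matched within 500 bases of the 5′ end for 121 of 166 tested members. Members had a median of 18 CpG per window, against 21.0 for the 7367 tested genes with a window. The 13 windows of members that rose had a median of 14 CpG and the 12 of members that fell a median of 13.5. Members not called had a median of 18. Among all tested genes the medians were 21.5 for rises, 23.0 for falls and 21.0 for genes not called. These differences were not tested. The motif TATAAA, on either strand, lay in 8.26% of member windows, 7.0% of those of all tested genes and 13.62% of all promoter windows. For 2 of the families with members called in opposite directions, the 250 bases before the start are shown, with each CG in capitals, so that the promoter of the member that rose can be read beside that of the member that fell. Slc25a15 (chr8:22398622-22398871, minus strand) had 11 CpG and Slc25a4 (chr8:46211063-46211312, minus strand) had 18. Slc26a6 (chr9:108853793-108854042, plus strand) had 9, and Slc26a9 (chr1:131743772-131744021, plus strand) had 4 and holds TATAAA.
Slc25a4: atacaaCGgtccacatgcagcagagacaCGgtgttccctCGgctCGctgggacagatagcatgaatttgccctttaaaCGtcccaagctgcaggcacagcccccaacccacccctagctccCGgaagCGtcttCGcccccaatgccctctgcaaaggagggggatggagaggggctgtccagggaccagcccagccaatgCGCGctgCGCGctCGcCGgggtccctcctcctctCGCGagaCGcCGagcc
Slc25a15: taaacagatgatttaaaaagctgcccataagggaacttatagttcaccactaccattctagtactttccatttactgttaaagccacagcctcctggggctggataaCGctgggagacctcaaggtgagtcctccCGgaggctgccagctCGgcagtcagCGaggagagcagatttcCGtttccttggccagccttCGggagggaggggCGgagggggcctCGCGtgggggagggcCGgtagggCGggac
Slc26a6: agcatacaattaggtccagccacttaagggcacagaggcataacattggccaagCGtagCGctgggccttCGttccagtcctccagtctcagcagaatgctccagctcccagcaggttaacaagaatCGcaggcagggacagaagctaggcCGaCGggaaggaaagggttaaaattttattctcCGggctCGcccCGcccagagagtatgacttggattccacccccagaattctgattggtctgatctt
Slc26a9: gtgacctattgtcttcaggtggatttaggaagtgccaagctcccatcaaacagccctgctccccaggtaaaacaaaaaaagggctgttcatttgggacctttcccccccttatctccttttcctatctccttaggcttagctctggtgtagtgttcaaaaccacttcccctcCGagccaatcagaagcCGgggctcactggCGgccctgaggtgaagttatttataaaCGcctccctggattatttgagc
The order of CpG did not hold across the Slc25 family: in the 300-base window Slc25a23, which rose, had 14 CpG, and Slc25a15 and Slc25a16, which fell, had 15 and 24.

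Genes that work with solute carriers, 24 of them on the list, gave 2 rises and 2 falls among 16 tested, near the 13.6% and 12.2% of all tested genes, with a median log2 fold change of 0.05. Atp1b1, a beta subunit of the sodium pump whose gradient drives the sodium-coupled carriers, rose to 72.5 ± 10.3 CPM in knockout, against 24.3 ± 4.21 CPM in control oocytes (log2 fold change 1.58, adjusted p = 0.000566). Bsg, the partner that brings monocarboxylate transporters to the membrane, rose to 29.2 ± 12.7 CPM in knockout, against 12.8 ± 3.91 CPM in control oocytes (log2 fold change 1.19, adjusted p = 0.0343), with overlapping groups. Nedd4l, a ubiquitin ligase that removes channels and transporters from the membrane, fell to 51.6 ± 16.7 CPM in knockout, against 127.0 ± 14.4 CPM in control oocytes (log2 fold change -1.30, adjusted p = 0.00279). Wnk1, a kinase upstream of the Slc12 cotransporters, fell to 319.6 ± 37.3 CPM in knockout, against 475.9 ± 15.03 CPM in control oocytes (log2 fold change -0.57, adjusted p = 0.0143).

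The authors' deposited table listed 32 of the members, all of them called here with the same sign, and the largest adjusted p among them in that table was 0.00918. Slc7a1 and Slc35f6 were called here and were not in the authors' deposited table.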

How the data were processed

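Single MII oocytes, 4 per genotype, were lysed, and per the labels' protocols cDNA was made by poly(A) priming and amplified (SMARTer Ultra Low kit) before single-read sequencing. The kit marks no strand and carries no molecular identifiers, so counting error is only part of the error and an mRNA with a short tail may be under-read. The authors' tools were GSNAP 2014-10-14, featureCounts 1.4.4 and DESeq2 1.3.79 on build mm10, per the submitters' processing notes. The deposited counts per gene were made by the authors with featureCounts, without a strand setting, for Ensembl release 69 and reads of mapping quality 1 or more, per the file headers. The authors' deposited comparison holds log2 fold changes, shrunken and unshrunken, with p-values and adjusted p-values. It also holds, per the file headers, the authors' standard error of each fold change (entered as a score), RPKM values and a normalized signal for each library, none of which was used for tests.

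Of 37224 identifiers, 35449 were matched to symbols in a gene name table, 10 took theirs from the deposited comparison and 1765 had none. Members and lists were chosen with earlier results of these data known. Classes were assigned by family number from textbook substrates, with some genes placed by symbol. Slc5a8 was placed with vitamins and organic ions, while Slc5a3, Slc5a4a and Slc5a12 were counted with sugars and polyols. For Slc5a12 this placement does not match its substrate, since it is not known as a sugar or polyol carrier. Slc4a1ap and Slc7a6os were set apart after their symbols were seen. Genes were tested on the deposited counts with edgeR 4.0.16 in R 4.3.3 (TMM factors, filterByExpr, quasi-likelihood F test, genotype as the only term), with p-values adjusted over 11066 genes. The fit was also tested on simulated counts. The SE is the log2 fold change divided by the square root of F. A CPM is a count per 1000000 of the library total times its TMM factor, and per-kilobase levels divide it by the deposited gene length. The text names, per class, up to 3 largest rises and falls among called members with a mean of at least 10 CPM and no overlap, the most abundant member per kilobase, a list of 24 genes and the genes nearest the count rule. Of the 24 listed genes 17 were members, of which 2 rose, 5 fell and 10 did not pass. Each result was also computed with scaling by library totals only, by median-of-ratios size factors, with other filters on low counts, DESeq2 1.42.0, the replicate number as a block, a length trend removed per library (loess, span 0.5), an adjusted p of 0.01, a 2-fold minimum, a member rule for both groups and each library left out in turn. Promoters were taken from RefSeq (GRCm38.p6), and exon overlap was computed from the exon coordinates deposited with the counts (Ensembl release 69). Figures were drawn with matplotlib 3.10.9 in Python 3.11.15. Some results are not reported here.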

Additional observations from a re-analysis of the deposited data

Results flagged for a closer look

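Among 96 groups of 4 libraries, those of 48 members in knockout and control oocytes, 4 held a library far from the other 3, by the gap to the nearest library as a share of the group's range. Chance flags about 1 in 20 such groups, so 4 of 96 is no more than chance gives. Slc9b1 stood at 78.1 CPM in knockout replicate 1, against 29.1 CPM in the next knockout library, and below all control libraries. Slc26a6 stood at 8.18 CPM in knockout replicate 4, against 13.7 CPM in the next knockout library, and above all control libraries. Slc39a10 stood at 554.8 CPM in knockout replicate 2, against 471.7 CPM in the next knockout library, and it is this library that reaches into the control range. Slc35b4 stood at 86.4 CPM in knockout replicate 1, against 76.4 CPM in the next knockout library.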

How the results depend on the processing

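No called member changed sign under any alternative run, and 9 rises and 6 falls passed in every alternative fit that tested them; Slc25a23 was not tested at 10 CPM in 4 libraries. With library totals only, 2382 of all tested genes rose and 504 fell, 32 members rose and 7 fell, and the class medians were 0.43 (amino acids), -0.063 (inorganic ions), 0.50 (metals), 0.49 (mitochondrial carriers), 0.89 (vitamins and organic ions) and 0.10 (genes named after a transporter). With at least 10 CPM in 4 libraries, which left 93 members, the amino acid median was -0.56, that of vitamins and organic ions -0.34 and that of genes named after a transporter 0.091. With 10 counts in 2 libraries of each group the amino acid median was -0.48. At an adjusted p under 0.01, 747 genes rose and 644 fell, 9 members each way. With a 2-fold minimum, 623 genes and 10 members fell. With a length trend removed, the inorganic ion class had 2 falls. Leaving out each library in turn gave 837 to 1244 falls among all genes, 9 to 18 among members, with the fewest without knockout replicate 2, and medians of -0.25 to 0.17 for mitochondrial carriers and 0.56 to 0.71 for vitamins and organic ions. The cause of these shifts was not tested. Same-numbered libraries did not deviate together (r from -0.16 to -0.03). These r values cover 4 pairs of libraries, and whether the numbers pair the samples was not tested. With the replicate block, 861 genes and 11 members fell and the median of vitamins and organic ions was 1.22. That fit kept 13 of the 16 rises and 11 of the 18 falls. The lists of lost calls given gene by gene leave it out. Calls lost there include Slc23a3, Slc26a6, Slc35f6, Slc20a1, Slc31a2, Slc39a10, Slc3a2, Slc45a3 and Slc6a20b, at an adjusted p of 0.0619 to 0.113. Precision is limited by 4 oocytes per group, and for members near the floor of 3 counts by depth.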
